A study of Rattus norvegicus with 6 samples.

Results

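Intronic circular RNAs (ciRNAs) are circles made of intron sequence alone, and 1174 of them from 1003 host genes had at least 1 read in white matter of 6 rats. They were all the entries that the authors' table places in its intronic class and that held a read in any library. They made up 13.6% of the 8635 circular RNAs with a read, and 1621 of the 35272 junction reads (4.60%). The other 7461 were exonic circRNAs, which hold 1 or more exons joined by back-splicing. A further 471 listed ciRNAs had no read in these libraries and were left out, except where their positions are described.

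The libraries came from white matter of 3 normal control rats and 3 rats of a cerebral palsy model, all Rattus norvegicus, with 1 library per rat. The sources used here do not say how the model was made, nor the strain, age or sex of any rat. RNA of both groups was treated with RNase R, which degrades linear RNA from its ends, and a circular RNA was counted by the reads across its junction. Each circle has a single junction, so counts of long and short ciRNAs were compared without a length correction. Whether circle length affects detection in these fragmented libraries was not tested. The control libraries (1 to 3) held 6793, 6285 and 5926 junction reads and the model libraries (1 to 3) 5821, 4750 and 5697. Of these, 253, 290 and 271 were ciRNA reads in the controls, and 236, 278 and 293 were so in the model libraries.

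When an intron is spliced out, its 5′ end is joined to an internal adenosine, the branch point, which lies shortly before the intron's 3′ end. The resulting lariat is normally opened by the debranching enzyme DBR1 and degraded. A ciRNA of the classical kind, described in human cells, is a lariat that escaped debranching and lost its tail beyond the branch point, so that it runs from the intron's 5′ end to the branch point. Such circles are largely nuclear, and some were reported in human cells to act on the transcription of their own host gene.

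All 1174 ciRNAs began at the 5′ end of an intron listed in the authors' table, as did all 471 listed entries without a read. Their 3′ ends fell into separate zones, whose bounds were set after the distances had been seen. The 3′ end lay 15 to 50 bases before the intron's 3′ end in 194 ciRNAs (16.5%), the zone in which branch points are usually found. It lay within 5 bases of the intron's end in 211 (18.0%), between 6 and 14 bases before it in 32 (2.73%), and more than 50 bases before it in 737 (62.8%). The genome of the build used by the authors was not used here, so whether a 3′ end sits on an adenosine was not examined.

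The branch point zone had a clear peak. The median distance to the intron's end within it was 26 bases (quartiles 22 and 32). In all, 111 ciRNAs ended 20 to 29 bases before the intron's end, against 7 that ended 51 to 60 bases before it. The most frequent distance was 21 bases, with 16 ciRNAs. Both strands held this peak, with 103 ciRNAs on the plus and 91 on the minus strand.

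Circles of the whole intron were divided unequally between strands. A total of 135 ciRNAs, with 198 reads, ended exactly at the last base of the intron, and 117 of them were on the plus strand against 18 on the minus strand. Another 35 ended 1 base short, and 2 ended beyond the intron. Of the 211 within 5 bases of the end, 173 (82.0%) were on the plus strand. Every library showed this: plus and minus counts were 38 and 13, 36 and 8, and 20 and 3 for controls 1 to 3, then 38 and 5, 26 and 4, and 26 and 6 for model rats 1 to 3. The listed entries without a read had 68 on the plus and 16 on the minus strand in that zone. Among circles ending over 50 bases before the intron's end the counts were 352 and 385. The sources used here do not say how ends were assigned on each strand, and the part of that step in the imbalance was not tested.

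**Figure D1:**
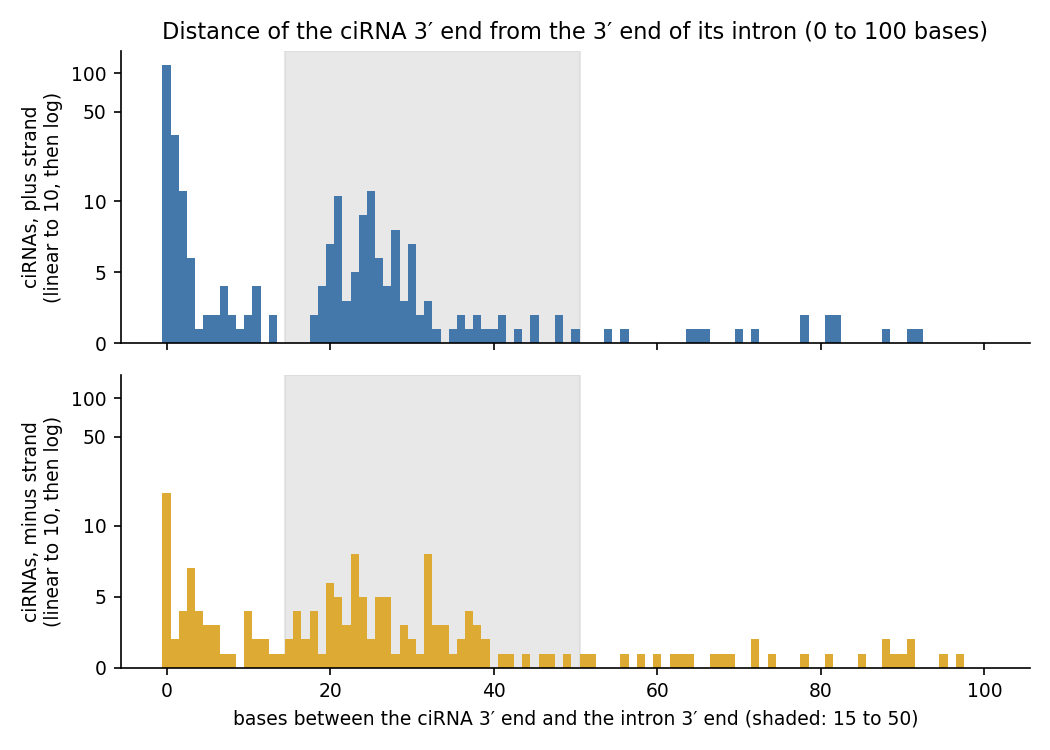
Number of ciRNAs at each distance (bases) between their 3′ end and the 3′ end of the intron, for the plus strand (top) and the minus strand (bottom). The count axes are linear to 10 and logarithmic above; the bars at 0 bases hold 117 and 18 ciRNAs, and both strands have a second group of bars in the shaded zone of 15 to 50 bases.

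ciRNAs were far shorter in the genome than exonic circRNAs. Their median span, from first to last base, was 316.5 bp (quartiles 220 and 1060), against 12651 bp (quartiles 4507 and 28534) for exonic circRNAs, whose span includes the introns between their exons. A total of 706 ciRNAs (60.1%) spanned under 500 bp, against 269 exonic circRNAs (3.61%), and 22 ciRNAs spanned over 10000 bp. Within libraries the mean log2 span per read was 9.04 ± 0.161 for ciRNAs and 13.16 ± 0.0539 for exonic circRNAs (SD, n = 6 libraries). The difference was -4.12 ± 0.131 and had the same sign in 6 of 6 libraries (exact two-sided sign-flip permutation test, p = 0.03125, adjusted p = 0.03125 over 3 class comparisons). That is the smallest p that 6 libraries allow.

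Span depended on where the circle ended. Circles ending over 50 bases before the intron's end had a median span of 246 bp (quartiles 199 and 333) and lay in introns with a median length of 2219 bp, of which they covered a median of 14.1%. Of these, 83.9% spanned under 500 bp. Circles ending in the branch point zone had a median span of 1045 bp, in introns of 1066.5 bp. Circles ending within 5 bases of the intron's end had a median span of 1019 bp.

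Among ciRNAs with at least 2 reads, the shortest were circles of 109 bp from Cacna1d, a calcium channel subunit, of 119 bp from Fam107a, and of 131 bp from Ncam1, a neural cell adhesion molecule. Each had 2 reads in a single library, and each ended over 50 bases before its intron's end. The longest was a circle of 275857 bp from Plcl1, a phospholipase C-like protein, which ended 25 bases before the end of an intron of 275882 bp, on chromosome 9 from 56902284 to 57178140 (build mRatBN7.2). A circle of 185500 bp from Sh3rf3 ended 28 bases before the end of its intron. Plcl1 had its 2 reads in control 3 and Sh3rf3 had its 2 reads in model rat 3. The next longest, 30359 bp from Plcxd2, had 2 reads in model rat 2.

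The host introns of ciRNAs were shorter than the introns that flank exonic circRNAs. The 1127 host introns had a median length of 1655 bp (quartiles 765 and 3711.5), and 34.9% were under 1000 bp. The flanking introns had a median of 6188 bp (quartiles 2434 and 16857), with 8.93% under 1000 bp. Within libraries, the median was 1338 to 1983 bp for host introns and 8371 to 8953 bp for flanking introns, so the ranges did not overlap. Only 104 host introns (9.23%) also flanked an exonic circRNA with a read, which is 0.913% of the 11386 flanking introns. The comparison of intron lengths is a description and was not tested.

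Host genes were shared with exonic circRNAs only in part. Of the 1003 ciRNA hosts, 467 (46.6%) also gave an exonic circRNA, which is 14.8% of the 3160 exonic hosts. The remaining 536 hosts gave ciRNAs only, with 834 ciRNA reads (51.4%). Among the 10 hosts with most exonic reads, 5 gave a ciRNA: Rere with 3 reads, and Nfix, Dtnb, Unc79 and Arhgap32 with 1 read each. Atrnl1, Eri3, Zfp532, Arid1a and Sergef had no ciRNA read. In all, 187 ciRNAs (15.9%) lay inside the span of an exonic circRNA. ciRNAs came from 21 chromosomes, with 36 on X and none on Y.

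Most hosts gave a single ciRNA: 866 (86.3%) gave 1, 111 gave 2 and 26 gave 3 or more. Dync1h1, the heavy chain of cytoplasmic dynein, the motor that carries cargo back along axons, gave the most, with 5 ciRNAs and 7 reads and no exonic circRNA read. Ptprd, a receptor tyrosine phosphatase of synapses and oligodendrocyte precursors, gave 4 ciRNAs with 10 reads beside 86 exonic reads. Mtmr2, a phosphoinositide phosphatase whose loss causes a demyelinating neuropathy in humans, gave 4 with 8 reads and no exonic read.

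Some introns gave several ciRNAs. Of the 1127 introns, 43 gave more than 1 ciRNA, and the ends of these differed by a median of 21 bases. They differed by 1 to 5 bases in 17 introns and by more than 100 bases in 10. The intron with the most was in Hnrnpk, an RNA-binding protein of the hnRNP family. Its 4 ciRNAs all began at position 6267057 of chromosome 17 and ended at 6268182, 6268195, 6268203 and 6268207, with 5 reads together. A short intron of Rnf44, of 207 bp, gave circles of 179 and 178 bp that ended 28 and 29 bases before its end, each found in both groups.

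ciRNAs were rare one by one. Of the 1174, 861 (73.3%) rested on a single read, against 3653 of the exonic circRNAs (49.0%). Another 291 had 2 or 3 reads, 18 had 4 or 5, and 4 had at least 6 (0.341%, against 13.7% of exonic circRNAs). The most abundant ciRNA had 27 reads and the most abundant exonic circRNA 1018. Reads per distinct ciRNA within a library were 1.34 ± 0.0361, against 2.69 ± 0.0447 per distinct exonic circRNA (SD, n = 6 libraries), with the same order in 6 of 6 libraries (exact sign-flip permutation test, p = 0.03125, adjusted p = 0.03125, the smallest possible).

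They also seldom returned in another rat. Only 30 ciRNAs (2.56%) had reads in more than 1 library, against 2395 exonic circRNAs (32.1%): 26 in 2 libraries, 3 in 3 and 1 in all 6. At equal totals the gap remained. Of entries with 2 reads, 13 of 234 ciRNAs (5.56%) and 477 of 1535 exonic circRNAs (31.1%) were in more than 1 library, and of those with 3 reads 3 of 57 (5.26%) and 411 of 670 (61.3%). Of those with 4 reads, 8 of 15 ciRNAs and 284 of 345 exonic circRNAs (82.3%) were. Reads of 1 ciRNA thus lay mostly within a single library: 283 of the 313 ciRNAs with at least 2 reads (90.4%) were in 1 library, against 37.1% of such exonic circRNAs. The libraries were amplified by PCR without molecular identifiers, and whether such reads are copies of 1 molecule was not tested.

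**Figure D2:**
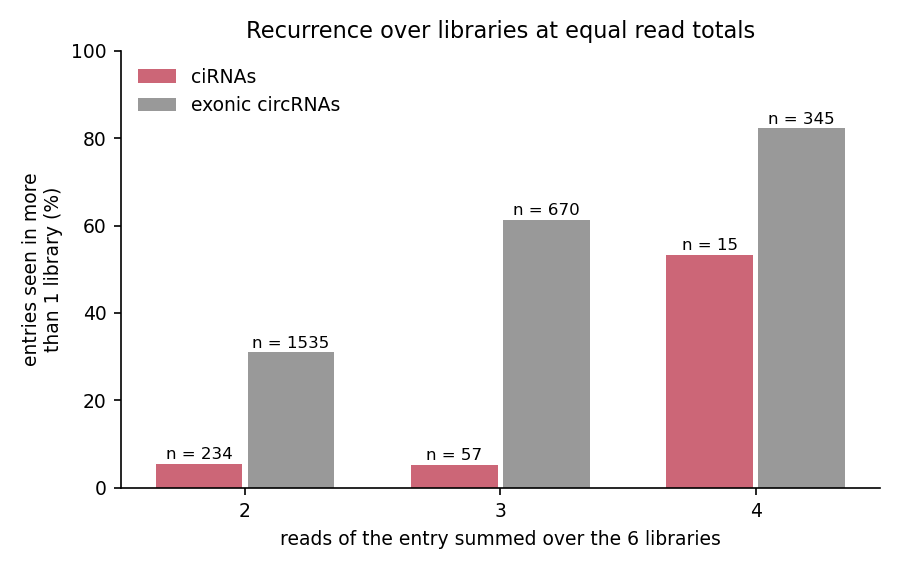
Percentage of entries with reads in more than 1 of the 6 libraries, for ciRNAs and exonic circRNAs with 2, 3 or 4 reads in all, with the number of entries above each bar. ciRNAs stand lower at each total, at 5.56% against 31.1% with 2 reads.

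Library by library, 4.25% ± 1.74 of the ciRNAs with 1 read in a library were seen in another library, against 46.2% ± 2.5 of exonic circRNAs with 1 read (SD, n = 6 libraries). The difference was -42.0 points and lay the same way in 6 of 6 libraries (exact sign-flip permutation test, p = 0.03125, adjusted p = 0.03125, the smallest possible). A return is defined by the other libraries, so the 6 differences are not independent, which this test ignores. Counting any ciRNA of the same intron as a return, an alternative chosen after the data were seen, raised the ciRNA value to 9.18%. At the level of introns, 56 of 1127 (4.97%) had reads in more than 1 library. Recurrence by zone, among ciRNAs with at least 2 reads, was 10 of 57 (17.5%) at the intron's end, 7 of 50 (14%) in the branch point zone and 12 of 194 (6.19%) for circles ending over 50 bases before it. These shares were not tested against each other.

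The 30 recurring ciRNAs held 122 reads (7.53%), and 23 were in both groups, 5 in controls alone and 2 in model rats alone. The only one in all 6 libraries came from Ppip5k1, a kinase that makes inositol pyrophosphates. It lay on the minus strand of chromosome 3 from 108299666 to 108303343, spanned 3678 bp and ended 5944 bases before the end of an intron of 9622 bp. Controls 1 to 3 held 3, 3 and 5 of its reads, and model rats 1 to 3 held 7, 2 and 7. The groups overlapped, with model rat 2 the lowest of all. A second ciRNA of that intron, ending 1 base away, had 3 reads in model rat 3. Ppip5k1 gave only 1 exonic circRNA read.

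The other ciRNAs with most reads were uneven over libraries. The circle of the unnamed host ENSRNOG00000067844 on chromosome X had 3, 0 and 2 reads in the controls, then 2, 0 and 0 in model rats 1 to 3. Dmtf1, a transcription factor that activates the ARF tumour suppressor, gave a whole-intron circle of 1027 bp with 5 reads in control 1 and 1 in model rat 3. Ralgapb, a subunit of a GTPase-activating complex for Ral proteins, gave a whole-intron circle of 1512 bp whose 6 reads all lay in model rat 2. The Ptprd ciRNA of 1336 bp had 2 and 3 reads in controls 2 and 3 and none in the model rats. Zfp638, a zinc finger protein, gave a whole-intron circle of 666 bp with 1 read each in controls 2 and 3 and 3 in model rat 2. A count of 0 in a library allows up to 3 reads, or 0.0442% to 0.0632% of its junction reads, and covers counting error only.

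**Figure D3:**
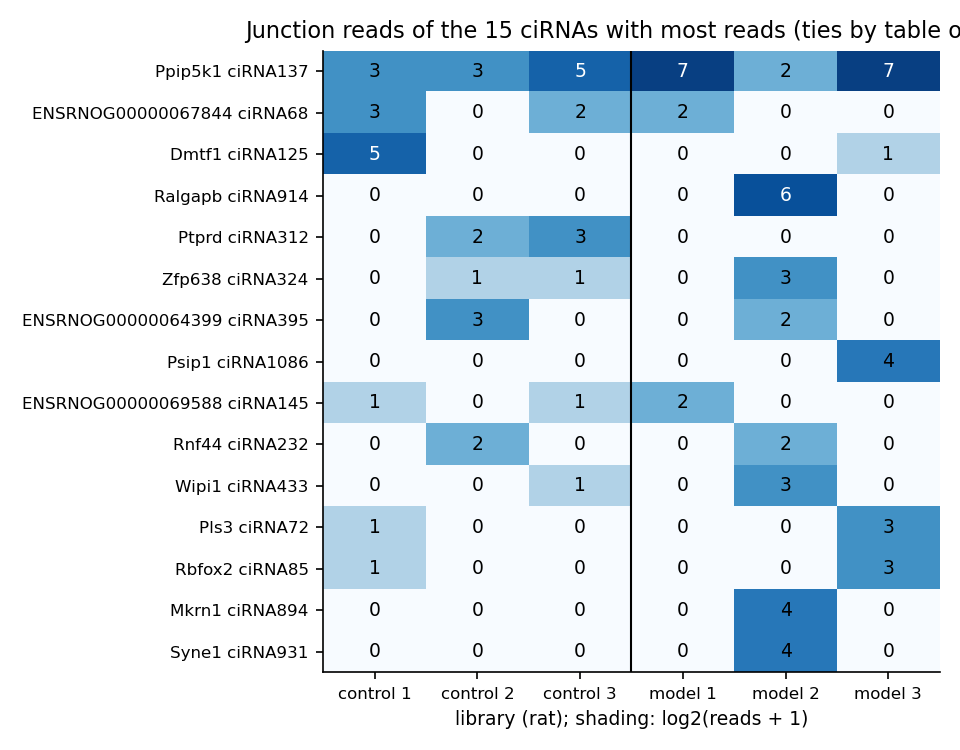
Junction reads of the 15 ciRNAs with most reads (ties by table order) in each library, shaded by log2(reads + 1), with controls left and model rats right of the line. Ppip5k1 is the only row with a read in all 6 libraries; the 4 reads of Psip1 lie in model rat 3 and those of Mkrn1 and Syne1 in model rat 2.

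The comparison of model with control rats asked whether the ciRNA population differs in this model. The ciRNA share of junction reads was 3.72%, 4.61% and 4.57% for controls 1 to 3 and 4.05%, 5.85% and 5.14% for model rats 1 to 3. The means were 4.30% ± 0.502 and 5.02% ± 0.906 (SD, n = 3 each). The groups overlapped, since model rat 1 lay below controls 2 and 3 (exact two-sided permutation test, p = 0.3, adjusted p = 0.667 over 4 measures). With 3 against 3 libraries this test cannot give a p below 0.1. In bulk tissue, fewer cells of a type and less RNA per cell cannot be told apart.

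On the authors' SRPBM scale, whose divisor per library is not defined in the sources used here, control ciRNAs summed to 6394 ± 576 and model ciRNAs to 6394 ± 644. The exonic sums were 142510 ± 5080 for controls and 122369 ± 11547 for model rats (SD, n = 3 each), with the lowest control at 138246 and the highest model rat at 134267. These are sums and not shares: the ciRNA means were alike, while the exonic mean was lower in model rats. A common divisor for all entries of a library cannot change its ciRNA share, so these sums are no second test of that share. The SRPBM setting was added after the data were seen.

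The other measures of the population overlapped between groups as well. At 236 ciRNA reads per library, controls had 184.2 ± 4.40 distinct ciRNAs and model rats 179.3 ± 9.33 (exact permutation test, n = 3 each, p = 0.5, adjusted p = 0.667). The mean log2 span was 9.05 ± 0.155 and 9.03 ± 0.202 (exact permutation p = 0.9, adjusted p = 0.9). Reads in ciRNAs that recur in another library made up 8.19% ± 1.90 in controls and 6.93% ± 0.210 in model rats (exact permutation p = 0.4, adjusted p = 0.667). Without model rat 2 the differences in span and in recurring reads turned to 0.10 and 0.358, and without control 3 that in span turned to 0.07.

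**Figure D4:**
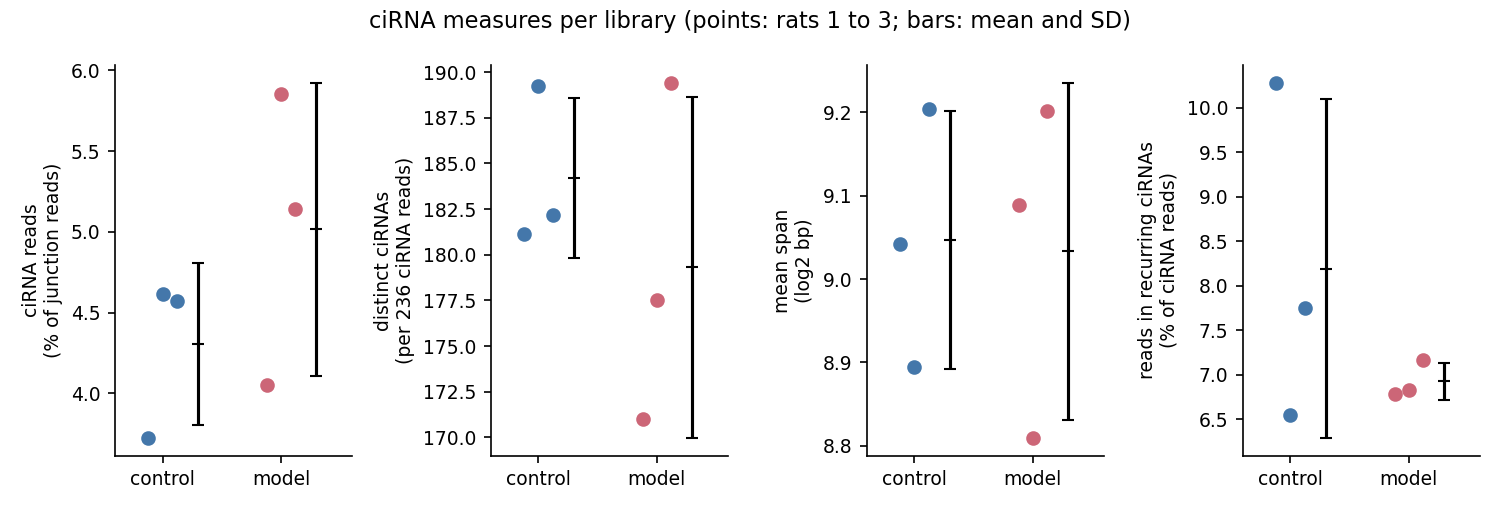
ciRNA share of junction reads (%), distinct ciRNAs at 236 ciRNA reads, mean span (log2 bp) and share of ciRNA reads in recurring ciRNAs (%), with 1 point per library and bars for the mean and SD of 3 rats. The points of the groups overlap in each panel; the share has means of 4.30% and 5.02%.

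Few ciRNAs were the same in both groups. Of the 1174, 583 had reads in controls only, 568 in model rats only and 23 in both (1.96%). The share in both groups was 24.8% for exonic circRNAs and 21.7% for all circular RNAs with a read. The 861 ciRNAs with a single read could not be in both groups, so these counts do not measure a difference between groups. Of the 30 ciRNAs in more than 1 library, 23 were in both groups. At the level of hosts, 97 were in both groups, which is 17.4% of the 557 control hosts and 17.9% of the 543 model hosts. For exonic circRNAs the shares were 64.3% and 69.4%. By zone, circles ending over 50 bases before the intron's end held 63.0% ± 3.71 of the ciRNA reads of controls and 61.7% ± 0.732 of those of model rats, and those in the branch point zone held 15.7% ± 2.79 and 16.1% ± 3.70. Circles ending within 5 bases of the intron's end held 19.3% ± 6.77 and 18.2% ± 4.49. The small zone of 6 to 14 bases did not overlap, with 4, 5 and 7 reads in controls and 9, 13 and 11 in model rats. Its bounds were set after the data were seen, and it was given no test.

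Tests of single ciRNAs reached few of them. With a minimum of 6 reads over all libraries, edgeR's quasi-likelihood test was run on 1029 circular RNAs, of which 2 (0.194%) passed an adjusted p of 0.05, both exonic. Only 4 of the 1174 ciRNAs were in that test, 0 were called and 0 had an unadjusted p under 0.05. edgeR's own low-count filter left 60 entries, of which 2 (3.33%) were called and none was a ciRNA. Without a filter, edgeR called 0 of 8635 entries (0%), and 0 of the 1174 ciRNAs had an unadjusted p under 0.05. DESeq2 and limma voom called 0 of the 4. The median log2 fold change, model over control, was -0.26 for the 4 ciRNAs and -0.06 for all 1029.

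The values of those 4 were imprecise. Per 1000 scaled junction reads, Ppip5k1 had 0.611 ± 0.212 reads for controls and 0.933 ± 0.491 for model rats (SD, n = 3 each). Its log2 fold change was 0.60 ± 0.93 (SE), with an adjusted p of 0.980 by edgeR. It was lowest without model rat 3 (0.36) and highest without model rat 2 (1.03). The log2 fold changes of Dmtf1 and ENSRNOG00000067844 were -1.87 ± 1.99 and -1.12 ± 1.87 (SE), both with an edgeR adjusted p of 0.980. Without control 1, which held 5 of the 6 Dmtf1 reads, no control read was left for Dmtf1. The ENSRNOG00000067844 value was then -0.42. Without model rat 1, ENSRNOG00000067844 had no read in the model group. Ralgapb, with reads in model rat 2 alone, had an unadjusted edgeR p of 0.0578 and an adjusted p of 0.690. Its fitted fold change is not printed, since no control held a read, though it entered the median of the 4.

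Summing the ciRNAs of a host gave 12 testable sums among 1062 sums, of which 3 (0.282%) were called, none of them ciRNA sums. edgeR gave 1 of the 12 an unadjusted p under 0.05, Ralgapb, at an adjusted p of 0.818. DESeq2 and limma voom gave 0 of the 12 a call. Without a filter, 1 of 4163 sums was called (0.024%), and 0 of the 1003 ciRNA sums were. Ptprd ciRNAs summed to 0, 2 and 6 reads for controls and 0, 2 and 0 for model rats (log2 fold change -1.63 ± 1.46, SE, edgeR adjusted p = 0.975). Without control 3 its value was -0.26, and without model rat 2 no model read was left. Rbfox2, a splicing regulator, had 1, 0 and 0 reads for controls and 0, 3 and 3 for model rats (2.43 ± 1.76, SE, edgeR adjusted p = 0.975), and no control read was left without control 1. The sums of Mtmr2 and Dync1h1 had log2 fold changes of -0.41 ± 1.53 and -0.20 ± 1.64, and each turned its sign when single libraries were left out.

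In the authors' deposited table, 0 of the 35 circular RNAs marked as changed were ciRNAs, and 0 ciRNAs had a p under 0.05. ciRNAs were 13.6% of the circular RNAs with a read. However, 861 of the 1174 rested on a single read, so most could hardly be marked. The smallest p of a ciRNA in the authors' deposited table was 0.188, for Ptprd, and every q-value of a ciRNA was 1. Its fold was infinite for 1151 ciRNAs, which had reads in 1 group only, and finite for 23.

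Genes of oligodendrocytes, the cells that make myelin in white matter, were represented among ciRNA hosts. Of a list of 34 such genes, 12 gave ciRNAs: 23 ciRNAs with 38 reads, which is 15.4% of the junction reads of the list, against 4.60% of all junction reads. Ptprd, described above as a gene of synapses and oligodendrocyte precursors, had the largest part. It held 10 of these 38 reads and 86 of the 208 exonic reads of the list. The reads were uneven, with 1, 10 and 14 for controls 1 to 3 and 2, 11 and 0 for model rats 1 to 3, so the groups overlapped. Only 5 of the 12 hosts also gave an exonic circRNA.

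Some myelin and oligodendrocyte genes of this list had ciRNA reads and no exonic reads. The myelin genes Mag, Mog, Cnp, Cldn11 and Mal of the same list gave no ciRNA. Mbp, which encodes myelin basic protein, had 3 ciRNAs with 1 read in control 3 and 3 in model rat 2. Mobp, a myelin-associated protein, had 4 reads in control 3. Tspan2, a tetraspanin of oligodendrocytes, had 2 reads each in controls 2 and 3. Its circle of 151 bp was among the 30 recurring ciRNAs. Myrf, the transcription factor that drives myelin genes, had 3 reads in model rat 2, Car2, a carbonic anhydrase, had 2 in control 2, and the apolipoprotein gene Apod had 1. Each of these 6 genes had 0 exonic circRNA reads, and no cell type fraction was measured here.

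The lists for other cell types were smaller and gave 0 to 3 ciRNA hosts each. ciRNAs made up 21.4% of the junction reads of the endothelial and pericyte list, 14.3% for oligodendrocyte precursors, 10.3% for neurons, 4.35% for astrocytes and 0% for microglia, on 0 to 4 ciRNA reads a list. Of 22 neuronal genes, 3 gave a ciRNA: Snap25, a synaptic vesicle fusion protein, with 2 reads in control 1, and the glutamate receptor subunits Gria1 and Gria2 with 1 read each. Of 14 astrocyte genes 2 did, Slc1a2 with 2 reads and Gfap with 1, all in control 2. Flt1, a VEGF receptor, was the only one of 10 endothelial and pericyte genes, with 3 reads in control 1. Ptprz1 was the only one of 8 genes of oligodendrocyte precursors, with 1 read. None of 13 microglial genes gave a ciRNA, and 1 of them gave an exonic circRNA, with 2 reads.

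Genes of RNA splicing and of the cytoskeleton were also hosts. Of 51 genes of splicing and ciRNA turnover, 13 gave 21 ciRNAs with 28 reads, 12 in controls and 16 in model rats. Rbfox2 had 7 reads, Hnrnpk 5, and Hnrnpa1 and Ddx17 3 each, and Adar, an RNA-editing enzyme, had 1. Of 19 tubulin and cytoskeletal genes, 8 gave 15 ciRNAs with 21 reads, which is 40.4% of the junction reads of that list, with 9 in controls and 12 in model rats. None of 17 translation genes gave a ciRNA, and neither did Ankrd52, Mcm5, Sirt7 or Ins2, hosts of intronic circles described in human or mouse cells. These lists are described by counts and were not tested.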

How the data were processed

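Per the labels' protocols, white matter RNA was treated with RNase R, fragmented and PCR-amplified, and read in pairs of 150 bp. The authors deposited 1 table, with raw counts of junction reads per library and a signal named SRPBM, per the file headers. It also holds log2 fold changes, p-values and q-values of the authors' own comparison, per the file headers. Coordinates are 1-based in mRatBN7.2, the build per the submitters' processing notes. The sources used here name no aligner, circRNA caller or authors' test. The samples are labelled as separate biosamples. SRPBM was used only for summed levels.

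Host introns and flanking introns were taken from the authors' table. Of 989 host symbols, 978 matched a RefSeq table of names, and none of the 14 hosts given by Ensembl ID only did. The members and gene lists were chosen with earlier results of these data known. Counts of 1029 entries with at least 6 reads were tested with edgeR 4.0.16 in R 4.3.3 (quasi-likelihood, TMM scaling) after the test had been tested on simulated data. Benjamini-Hochberg adjustment ran over all entries tested. DESeq2 1.42.0, limma 3.58.1 (voom), other filters and scalings, a block for the replicate number and fits without each library were alternatives. Library measures were compared with exact permutation tests, and classes within libraries with exact sign-flip tests, in Python 3.11.15. Distinct ciRNAs were counted after thinning to 236 reads, as the mean of 20 draws. Named ciRNAs were the 15 with most reads, those in all 6 libraries, the strongest tested, the hosts with most ciRNAs, the 3 shortest and the 3 longest, and the leading host of each list. Other names, among them further list members and the Rnf44 circles, were added after their values were seen. No sequence is shown, since no genome of this build was used here. Some hosts that the naming rule or the lists include are not reported here by name.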

Additional observations from a re-analysis of the deposited data

How the results depend on the processing

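No ciRNA and no ciRNA sum was called under any filter, scaling, tool or left-out library that was run. Some of these settings could call few or none. edgeR's own low-count filter left 0 ciRNAs and 0 ciRNA sums to test, and a minimum of 10 reads left 1 ciRNA and 2 sums. Without a filter, 861 of the 1174 ciRNAs tested rested on a single read. Differences below are model minus control. The difference in ciRNA share was 0.713 points, and ranged from 0.295 to 1.19 points without single libraries. The summed SRPBM of ciRNAs, which is not a share, differed by -0.208 SRPBM, with means of 6394 in both groups. The difference in distinct ciRNAs was -4.90, and ranged from -9.95 to -1.78 without single libraries. It was 14.1 with all junction reads thinned to 4750, which leaves unequal numbers of ciRNA reads and is thus a different measure. Without single libraries the span difference ranged from -0.10 to 0.10 and that of recurring reads from -1.99 to 0.358. The class differences kept their direction without each library, from -4.15 to -4.09 (log2 span), -1.37 to -1.33 (reads per entry) and -39.5 to -37.7 (recurrence, points). There, 5 libraries allow no p below 0.0625. Both recurrence measures then counted returns among the 5 libraries left, so their ranges are not on the scale of the values for 6. Among log2 folds, Dmtf1 ranged from -3.79 to 1.90 (sum -3.70 to 1.89) without single libraries, the highest without control 1. Without single libraries, Mtmr2 ranged from -3.80 to 1.13, at 0.16 without model rat 1 or 3, and Dync1h1 from -0.96 to 0.36, at 0.11 and 0.24 without controls 1 and 3. Fitted values where 1 group held no read, such as the lowest and the highest of Dmtf1 and the lowest of Mtmr2, are no bound. Ralgapb has no value without model rat 2, which held all its reads. The cause of these changes was not tested. The minimum of 6 reads left 4 ciRNAs to test, and all 1174 were tested without it.

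Deviations of same-numbered libraries correlated at -0.0519, -0.0219 and -0.0325 over 561 entries. Those of differently numbered libraries correlated at -0.0455 to 0.0790. The values show no pairing of rats by number, but correlations of such low counts cannot exclude one. With the number as a replicate block, the share difference was 0.713 points (exact permutation p = 0.25), 0 ciRNAs and 0 ciRNA sums were called, and as many entries (2) and sums (3) were called as without it.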
